A study of Drosophila melanogaster with 2 samples.

Results

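The genes examined here act in ventral furrow formation, the folding of the presumptive mesoderm into the Drosophila embryo: fog, T48, mthl1 (also called mist), cta, RhoGEF2 and Traf4. They were a fixed list of 6 genes named for their roles, out of 13968 protein-coding genes on the chromosomes analysed. The rule that names them uses no measured value, but it was written with earlier results of these data known. The data were peaks from chromatin immunoprecipitation with sequencing (ChIP-seq) for Twist, in whole embryos of mixed sex aged 2 to 12 h by the label of their source, while a separate age label gives a different number that cannot be an embryo's age. The embryos came from 1 transgenic line that carries Twist with GFP at its C-terminus. An anti-GFP antibody was used on whole embryos, so peaks pool all cells with bound fusion protein and cannot be assigned to a tissue. Both biological replicates belong to the only group (2 samples, 1 group), with no second genotype, stage or treatment, so binding was described along the genome and between replicates, without a test. The 4 deposited lists held 30000 peaks for each replicate, 30000 for both pooled, and 6516 in the authors' list thresholded by irreproducible discovery rate (IDR). A summit, the highest point of a peak, was assigned to a gene when it lay in the annotated gene body or within 10 kb. Peaks were ranked within a list by the authors' signal value, 1 being the highest. The IDR list held the 6516 highest-ranked peaks of the pooled list, so it is a part of that list. A place in it does not show that a peak ranked as high in each replicate. At the 6 genes lay 26 of the 6516 IDR summits.

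Twist is the basic helix-loop-helix transcription factor that specifies the mesoderm, and cells of the ventral furrow constrict their apical sides to fold inward. Fog is a secreted ligand, Mthl1 a G protein coupled receptor for it, and Cta the G protein alpha subunit that acts downstream. T48 is an apical transmembrane protein that recruits RhoGEF2, a guanine nucleotide exchange factor that acts upstream of myosin contraction. Traf4 acts on the placement of adherens junctions in the mesoderm. Basic helix-loop-helix proteins bind E-boxes, sites of the form CANNTG, and CATATG and CACATG are the types taken here as Twist's.

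The windows below give 101 bp of the Release 6 (dm6) plus strand around IDR summits, read from the RefSeq assembly, with each E-box in capitals. The first group holds the printable summits with CATATG or CACATG, at T48 and Traf4. On the other strand the latter reads CATGTG.
T48 rank 841, chr3R:26888944-26889044: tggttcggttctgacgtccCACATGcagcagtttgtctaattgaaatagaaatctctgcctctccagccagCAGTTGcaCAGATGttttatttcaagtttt
T48 rank 5501, chr3R:26884529-26884629: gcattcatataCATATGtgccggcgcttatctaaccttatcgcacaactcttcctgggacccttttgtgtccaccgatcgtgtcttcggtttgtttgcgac
T48 rank 5608, chr3R:26901149-26901249: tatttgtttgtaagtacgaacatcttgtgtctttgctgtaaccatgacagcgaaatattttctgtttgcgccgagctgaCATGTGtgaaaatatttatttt
Traf4 rank 67, chr2L:4370272-4370372: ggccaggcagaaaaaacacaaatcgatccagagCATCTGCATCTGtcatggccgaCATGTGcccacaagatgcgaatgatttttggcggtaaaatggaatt
Traf4 rank 4110, chr2L:4376699-4376799: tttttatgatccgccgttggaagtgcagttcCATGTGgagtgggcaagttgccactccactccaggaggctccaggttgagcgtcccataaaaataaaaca
The second group shows selected summits that lack both types, and does not represent the E-box content of all such summits. Those left out include Traf4 rank 272, with CAACTG, and Traf4 rank 783, with CACCTG. Also left out are mthl1 rank 1319 and T48 rank 2225, without any E-box. The windows shown of Traf4, fog and mthl1 hold CAGATG, a type found at 8 of all 26 summits. On the other strand it reads CATCTG. The window shown of T48 holds CAGCTG.
T48 rank 190, chr3R:26883043-26883143: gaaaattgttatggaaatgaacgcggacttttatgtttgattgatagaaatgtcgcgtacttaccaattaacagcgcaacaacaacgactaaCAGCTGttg
Traf4 rank 181, chr2L:4363848-4363948: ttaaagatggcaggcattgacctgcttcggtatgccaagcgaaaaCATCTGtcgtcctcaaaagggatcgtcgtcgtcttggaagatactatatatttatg
fog rank 2872, chrX:22859576-22859676: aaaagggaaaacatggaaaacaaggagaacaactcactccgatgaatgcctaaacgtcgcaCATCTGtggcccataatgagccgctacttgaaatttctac
mthl1 rank 2259, chrX:16644361-16644461: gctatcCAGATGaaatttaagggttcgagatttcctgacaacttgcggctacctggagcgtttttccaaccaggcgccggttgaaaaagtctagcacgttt

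Peak numbers differed widely among the genes. Traf4 had 11 IDR summits, T48 had 7, mthl1 had 5, fog had 2, RhoGEF2 had 1 and cta had 0. Thus 5 of the 6 genes had at least 1, where 63.7% of all protein-coding genes did, so a count of this kind says little in a window this wide. Within the gene body alone 4 of the 6 genes (Traf4, T48, mthl1 and fog) held an IDR summit, against 13.2% of protein-coding genes. This was not particular to the 6, as 16 of 22 other apical constriction genes, described below, also held one there. At least 5 summits were found at 3 of the 6 genes and at 7.75% of all genes. A strongest peak within rank 200 was found at 2 of the 6, Traf4 and T48, and at 4.19% of all genes. Longer genes have wider windows, and these shares are not adjusted for length. Per 10 kb of window, Traf4 had 2.84 IDR summits, mthl1 1.70, T48 1.42, fog 0.393 and RhoGEF2 0.267, beside a median of 0.456 over protein-coding genes. Of all protein-coding genes, 1.31% were as densely occupied as Traf4 or more so, 8.97% as mthl1, 12.6% as T48, 58.2% as fog and 61.9% as RhoGEF2.

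The order was the same in the strong peaks of each replicate alone. Among the 6516 highest peaks of each replicate, Traf4 had 11 summits in replicate 1 and 12 in replicate 2, T48 had 6 and 7, and mthl1 had 4 and 6. Of these peaks fog had 2 and 2, RhoGEF2 had 1 and 1, and cta had 0 and 0. These summits were not always those of the IDR list. Of the IDR summits of T48, ranks 5331, 5501 and 5608 stood at 14847, 10016 and 8566 in replicate 1, outside its 6516 highest. Also outside were mthl1 ranks 4973 (9577) and 5063 (6701) and Traf4 rank 4838 (6904). In replicate 2, T48 rank 5331 (6954) was outside. The replicate 1 counts include summits at the starts of T48 (6252) and mthl1 (4563), where the IDR list has none. Within each replicate T48 stood above mthl1, at 6 against 4 and 7 against 6. Across the replicates their ranges overlapped (6 to 7 and 4 to 6), so the size of their difference stays uncertain. Over the full lists the order was less clear, and Traf4 and T48 tied in replicate 1. The counts were 38 pooled, 33 in replicate 1 and 35 in replicate 2 for Traf4. For T48 they were 30, 33 and 28, for mthl1 19, 16 and 20, for fog 15, 15 and 11, and for RhoGEF2 6, 4 and 7. The gene cta had none in any list, where at least 1 summit lay at 79.2% of protein-coding genes in the pooled list, 83.1% in replicate 1 and 80.1% in replicate 2.

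**Figure D1:**
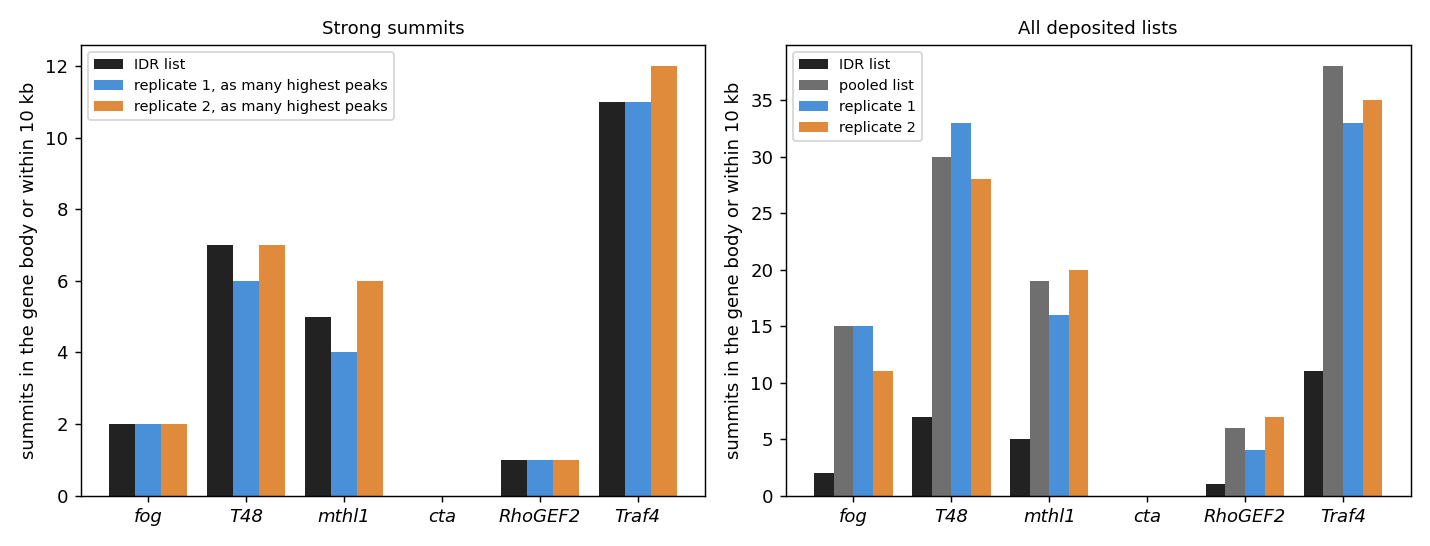
Summits (y axis, bars from 0) assigned to each gene, up to 10 kb from its body. Left, the IDR list beside the equally many highest peaks of each replicate; right, all 4 deposited lists. Traf4 is highest in every list except that of replicate 1, where it ties with T48 at 33, and cta is at 0 in all of them.

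The ligand gene fog (X, 22824317 to 22855194, minus strand, 30.9 kb) had 2 IDR summits of middling rank. The stronger, ranked 2872 (3070 in replicate 1 and 2916 in replicate 2), lay 4432 bp upstream of the first annotated start. It fell in an intron of CG42346, a gene on the opposite strand whose body overlaps that of fog. The weaker, ranked 4988 (5057 and 5534), lay in the 3' UTR of fog, 30066 bp from the first start. It held 1 CATATG and 1 CAGATG, and is not printed because it lies in a UTR. The annotated starts of fog carried weak signals. The best summit within 500 bp of the first start ranked 27755 in the pooled list, and that at the internal start, 18.9 kb downstream, ranked 16108. Neither was in the IDR list.

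T48 (3R, 26881734 to 26910997, plus strand, 29.3 kb) had its strongest summits inside the gene, in introns. Its strongest summit ranked 190 in the IDR list, 255 in replicate 1 and 156 in replicate 2. It lay 1359 bp downstream of the start in the first intron, which is 1.56 kb long. A further 5 summits, ranked 841, 2225, 5331, 5501 and 5608, were spread over the second intron of 25.3 kb, from 2845 to 19465 bp after the start. The last, ranked 2415, lay 5 bp from the start of the upstream gene ms(3)K81 and 5887 bp from that of T48, so it need not belong to T48. The 3 weakest intronic summits stood further down the list of replicate 1 than that of replicate 2: 14847 against 6954 for rank 5331, 10016 against 3167 for rank 5501, and 8566 against 3844 for rank 5608. The best summit at the start of T48 itself ranked 7198 in the pooled list, outside the IDR list.

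The receptor gene mthl1 (X, 16640968 to 16650309, plus strand, 9.34 kb) had fewer summits of its own than its count of 5 implies. A pair of summits, ranked 2259 and 4973, lay in a single peak interval in its only intron, which is 4.26 kb long. Their ranks were 3076 and 9577 in replicate 1 and 1533 and 3494 in replicate 2. The strongest summit in the window, ranked 1319 (1592 and 1028), lay 63 bp from a start of r, 15060 bp from that of mthl1. The others lay 1 bp from a start of RpS19a, a ribosomal protein gene (rank 4059), and 222 bp from the small non-coding RNA gene sbRNA:1 inside Rok (rank 5063). When a summit counted for the nearest protein-coding start alone, mthl1 kept 2 of the 5. By that count fog kept 1 of 2 and T48 5 of 7, while Traf4 kept 11 of 11 and RhoGEF2 1 of 1. Of the 26 IDR summits at the 6 genes, 20 also lay in the window of another protein-coding gene. The start of mthl1 had a summit at rank 6930 in the pooled list, just outside the IDR list. The best there ranked 4563 in replicate 1 and 16097 in replicate 2.

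The G protein gene cta (2L, 22981816 to 22992951, plus strand, 11.1 kb) had no summit in any list. Its end lies 521 kb from the end of the assembled 2L arm next to the centromere. The nearest IDR summit was 445 kb away and the nearest pooled summit 182 kb away. In replicate 1 the nearest was 72.4 kb away, and in replicate 2 it was 809 kb away. Of 14 protein-coding genes within 500 kb, 2 had an IDR summit in their window, 8 a summit of replicate 1 and 0 one of replicate 2. Repeat-masked sequence made up 28.5% of the cta window and 18.1% of the 2L arm. It made up 10.2% (Traf4) to 24.1% (fog) of the windows of the other 5 genes. Its part in the absence of summits was not tested, and peak lists do not show which sequence the reads could cover.

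RhoGEF2 (2R, 17027190 to 17044653, plus strand, 17.5 kb) encodes the guanine nucleotide exchange factor of the pathway. Its single IDR summit, ranked 2274, lay at the promoter, 272 bp upstream of the start. The summit ranked 1878 in replicate 1 and 3181 in replicate 2. It lay inside asRNA:CR44390, 75 bp from the start of that non-coding gene, which runs in the opposite direction, and the 2 genes cannot be told apart as its target. No E-box of any type lay within 50 bp of the summit. No IDR summit lay in the 17.5 kb of the gene body. The pooled list placed 1 there, 556 bp after the start, at rank 10905.

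Traf4 (2L, 4361925 to 4380716, plus strand, 18.8 kb) had the strongest and the most peaks. Its strongest summit ranked 67 in the IDR list, 86 in replicate 1 and 58 in replicate 2, the next ranked 181 (218 and 163), and the third 272 (417 and 174). All 11 IDR summits lay in the gene body, in the second intron of its long transcript, which is 15.7 kb long. They spanned 1973 to 14824 bp after the first start, in 8 peak intervals, with a median spacing of 1043 bp. A second annotated start lies inside that intron, 10.1 kb after the first. Summits ranked 1468 and 4838 lay 208 and 3 bp from it, whereas the first start had its best summit at rank 12564 in the pooled list, outside the IDR list. The non-coding gene lncRNA:CR45363 covers 7 of the 11 summits on the opposite strand, and its own starts lie within 500 bp of 3 of them. Every one of the 11 had Traf4 as the nearest protein-coding start.

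**Figure D2:**
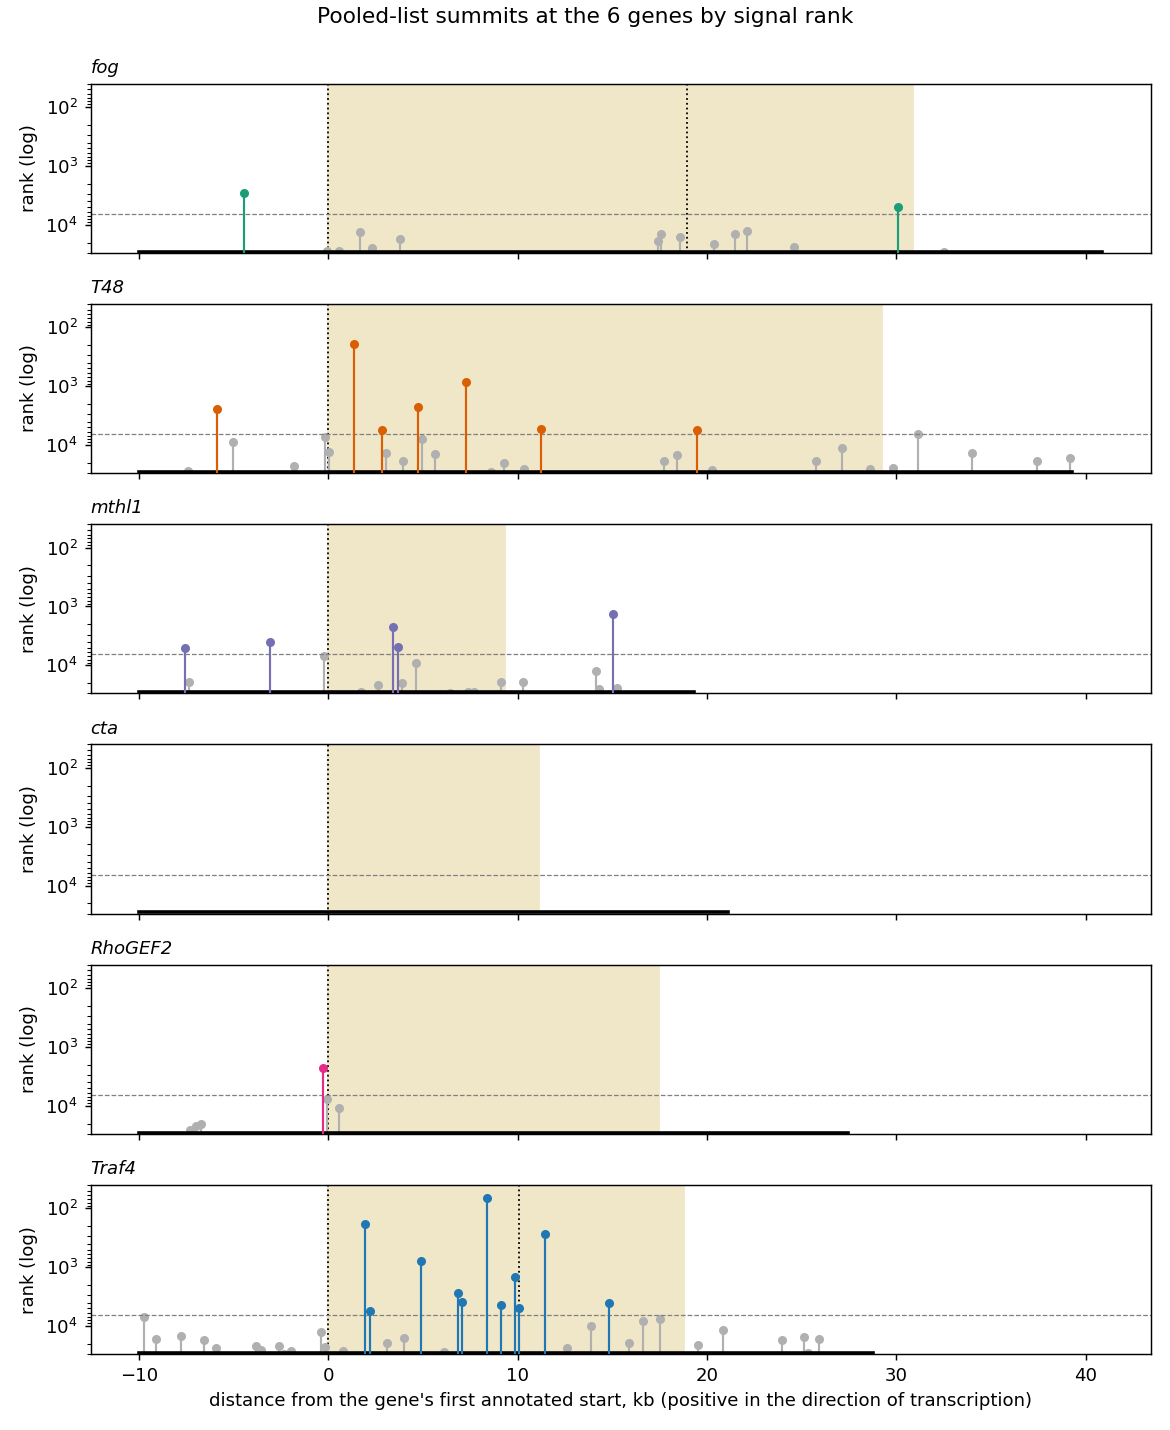
Summits of the pooled list along each gene, with distance from the first annotated start in kb (x axis) and signal rank on an inverted log scale (y axis). Coloured summits are in the IDR list (above the dashed line), grey ones are not; shading marks the gene body, dotted lines the annotated starts and the black bar the window of 10 kb on each side. The strongest summits of T48 and Traf4 lie in introns, and cta has none.

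The 26 summits were mostly intronic and away from the genes' own starts. Introns, away from annotated starts, held 15 of them (57.7%) against 38.2% of all IDR summits. The 26 were selected for lying in or near these genes, and all IDR summits were not, so the 2 shares are not alike. Intergenic sequence held 0 of the 26, against 18.4% of all IDR summits. Among the 15 is the fog summit ranked 2872, which lay in an intron of CG42346 outside fog. Within 500 bp of any annotated start lay 10 of 26, 38.5% (95% Wilson interval 22.4 to 57.5%), against 39.5% of all IDR summits. Only 3 of the 10 lay at a start of the gene itself, 1 at RhoGEF2 and 2 at the internal start of Traf4. The rest were at starts of neighbouring or non-coding genes. None of fog, T48, mthl1 and Traf4 had an IDR summit within 500 bp of its first start. The member summits are clustered in few genes, so intervals cover counting error only.

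Both replicates held all 26 summits within 100 bp, where 95.4% of all IDR summits were in both. The IDR list was made from these replicates, so this describes the list. Summits of the replicates lay a median of 31 bp apart, against 21 bp over all IDR summits. With a distance of 50 bp, 19 of the 26 matched in both. Among the 6516 highest peaks of each replicate 20 did. Of the 26, 20 ranked higher in replicate 2 and 6 in replicate 1, where 49.6% of all IDR summits in both lists ranked higher in replicate 2. They were 7 of 7 at T48, 8 of 11 at Traf4, 4 of 5 at mthl1, 1 of 2 at fog and 0 of 1 at RhoGEF2.

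**Figure D3:**
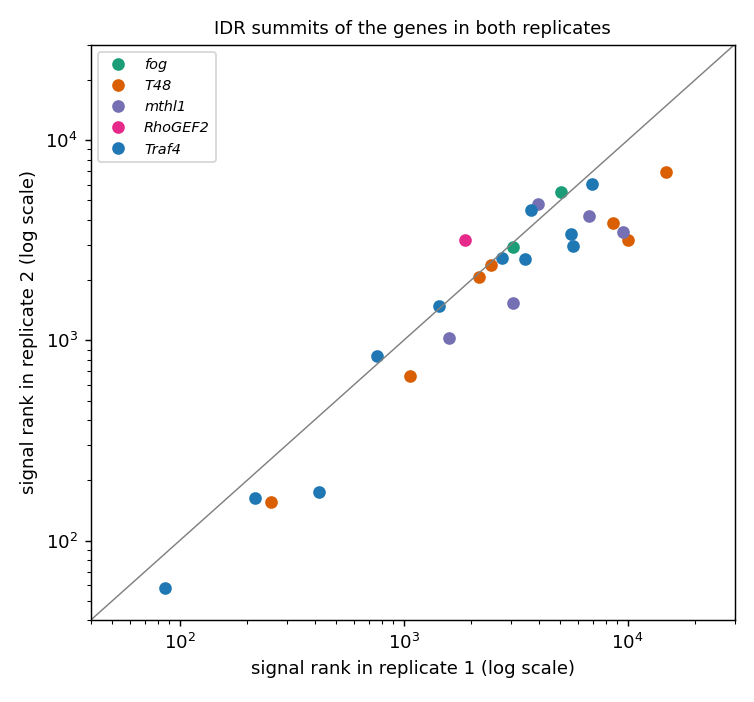
Signal rank in replicate 1 (x axis) against replicate 2 (y axis), both on log scales, for the 26 IDR summits, coloured by gene; the line marks equal ranks. Of the 26 points, 20 lie below the line, at a higher place in replicate 2, and those of T48 are among them in 7 of 7 cases.

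The E-box types taken as Twist's stood at a minority of these summits, at a share whose interval includes that of all IDR summits. CATATG or CACATG lay within 50 bp of 6 of the 26, 23.1% (95% Wilson interval 11 to 42.1%), against 28.2% of all IDR summits. T48 had 3 of 7, Traf4 2 of 11, fog 1 of 2, mthl1 0 of 5 and RhoGEF2 0 of 1. At least 2 matches stood at 0 of the 26 (95% Wilson interval 0 to 12.9%), against 7.17% of all IDR summits. The matches were close to the summit at Traf4, at 8 bp in the strongest peak and 16 bp in the peak ranked 4110, and 28 to 36 bp away at T48 and fog. CAGATG was found at 8 of 26, 30.8% (16.5 to 50%), against 10.3% of all IDR summits: at 4 of 11 for Traf4, 2 of 2 for fog, 1 of 7 for T48 and 1 of 5 for mthl1. This type was picked out after its values were seen, and with 10 types compared it has no test. The strongest Traf4 window, printed above, holds 2 adjacent CAGATG sites and 1 CACATG. The type CACGTG was in 0 of the 26 windows, against 2.87% of all IDR summits. The type CAAATG was also in 0, against 10.3%. The 95% Wilson interval of 0 of 26, 0 to 12.9%, includes both of these shares, and neither type was tested. The type in the site bound by Snail, CACCTG, was in 1 of 26 (3.85%), at Traf4, against 2.73%. At least 1 E-box of any type was in 18 of 26 windows, 69.2%, against 57.2% of all IDR summits.

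Beyond the IDR list, 82 weaker pooled summits lay in the windows, of which 38 (46.3%, 95% Wilson interval 36 to 57.1%) had a summit of both replicates within 100 bp. Over all 23484 pooled summits outside the IDR list the share was 44.5%. The 38 were 15 of 27 at Traf4, 11 of 23 at T48, 6 of 14 at mthl1, 5 of 13 at fog and 1 of 5 at RhoGEF2. The highest ranked 6547, in the window of T48 but 14 bp from the start of Ets97D, close to the end of the IDR list at 6516.

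Other genes of apical constriction were compared as a list of 22: the second Fog receptor gene smog, G protein partners, actomyosin and its regulators, junction genes, and the transcription factors twi and sna. Of these, 20 of 22 had an IDR summit in their window (63.7% of all genes), and ric8a and alpha-Cat had none. The list is not separate from the members, because all 4 IDR summits of Rok are also counted for mthl1. At least 5 summits were found at 7 of the 22, 31.8% (95% Wilson interval 16.4 to 52.7%), against 7.75% of all protein-coding genes. Most of these summits lay in the flanks, except at cv-c, where 15 of 20 lay in the gene body. The body held 0 of 5 at Rho1, 0 of 5 at shg and 1 of 5 at dia. It held 1 of 6 at sna, 1 of 9 at Mbs and 3 of 11 at twi. The shares are not adjusted for length, and the window of cv-c spans 110 kb. A strongest rank within 200 was found at 2 of the 22, 9.09% (2.53 to 27.8%), an interval that includes the 4.19% of all protein-coding genes. They were twi (61) and Gprk2 (78), a kinase of G protein coupled receptors. Then followed cv-c (209), with 20 summits, the G protein beta subunit gene Gbeta13F (244) and sna (503). Of the 2 IDR summits of Gbeta13F, 0 lay in its gene body. The gene smog had 2 summits, the stronger ranked 1247. The gene alpha-Cat, 4770 kb from the assembled end of 3L, had 0 summits in every list, as cta had, and 34.9% of its window was repeat-masked. The gene ric8a had 7 pooled summits but no IDR summit, and 11.2% of its window was masked, against 21% of the X arm. A part of repeats in these absences was not tested.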

How the data were processed

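Twist-GFP ChIP-seq peaks of 2 biological replicates (1 group) were analysed. The authors' deposited peak lists (dm6, per the labels) are in narrowPeak format, which gives each peak a signal value whose scale is not stated, a −log10 q-value and the summit's offset. The deposited signal served for ranks inside a list, and the deposited −log10 q-value, with many ties at its highest value, served for no result. Each replicate's list was made from its alignment and 1 control file, the pooled list from both alignments, and the IDR list from those lists, per the accompanying deposited records. Aligner, peak caller and IDR threshold: not given in the sources used here. Read depth is unknown, so Wilson 95% intervals cover the counting of peaks only.

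Summits (start plus offset, written 1-based) were assigned to Ensembl release 115 genes, without transposable elements, within 10 kb. A replicate summit matched within 100 bp. A promoter was 500 bp around any annotated start. E-boxes (CANNTG, 10 types, both strands) were searched within 50 bp of a summit in the RefSeq Release 6 sequence. Python 3.11.15, numpy 2.4.6, scipy 1.17.1 and matplotlib 3.10.9 were used, and the counting steps were tested on simulated peaks. The members and lists were chosen with earlier results of these data known. All 6 members were described, with, of the 22 pathway genes, the 5 of strongest rank and those without an IDR summit, the genes nearest to members' summits, and the most alike gene of each member. smog was added as the second receptor. Alternatives were narrower windows, nearest-start assignment, the 3258 IDR peaks of highest signal, each replicate alone, other matching distances and motif windows.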

Additional observations from a re-analysis of the deposited data

How the results depend on the processing

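With the higher-signal 3258 IDR peaks, the 26 summits at the 6 genes became 14 (T48 4, Traf4 6, mthl1 2, fog 1). CATATG or CACATG was found at 2 of 26 within 25 bp of the summit, at 10 of 26 within 100 bp, and at 2 of 14 with the higher-signal peaks. The share over all IDR summits was 17.4%, 38.4% and 32.5% under those settings. With the highest peaks of 1 replicate in place of the IDR list, the 6 genes had 24 to 28 summits, 5 of the 6 had a summit, 19 of the 22 pathway genes did, the strongest rank was 58 to 86, and 5 to 6 summits held CATATG or CACATG. The gene body alone held 20 of the 26 summits, and RhoGEF2 then had 0, mthl1 2 and fog 1, so 4 of the 6 genes had one. Within 5 kb mthl1 had 3. Both replicates held 19 of the 26 within 50 bp. The causes of these differences were not tested. CAGATG, added after the data were seen, was at 6 of 26 within 25 bp and 11 of 26 within 100 bp, against 5.6% and 16.1% of all, and at 5 of 14 with the higher-signal peaks, against 10.5%. With the highest peaks of replicate 2 alone it was at 7 of 28, against 10.6%, and with those of replicate 1 alone at 8 of 24, against 9.53%. No paired analysis was possible because there is 1 group. Without read counts, a gene with no summit cannot be told from one with little usable sequence.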

Other observations

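The protein-coding gene with the most similar summit counts over the 4 lists (smallest distance between log2(count + 1) values) was CG42346 for fog, which overlaps it and shares its summits, at a distance of 0. It was RN-tre for mthl1 (0.0704), ckn for T48 (0.135) and apt for Traf4 (0.20). The gene apt had 12 IDR summits beside 11 at Traf4, and 36, 36 and 37 summits in the pooled, replicate 1 and replicate 2 lists beside 38, 33 and 35. CG8852 had the same counts as RhoGEF2 in all 4 lists. For cta it was CG17698, chosen by window length among 2147 protein-coding genes with 0 summits in every list.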
